A study of Mus musculus with 2 samples.

Results

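The interferon response gene families were followed here across the cells of the adult mouse bone marrow niche. Members were all genes of the deposited matrix whose symbols begin with Ifit, Ifitm, Isg, Irf, Gbp or Oas and a number (or Oasl), together with single genes that include Stat2, Rsad2, Igtp, Iigp1, Mx1 and Mx2. This gave 56 of 27999 genes under 55 symbols, since Gbp6 is listed under a pair of identifiers and Mx2 has no entry. By family they were 12 Irf, 11 Gbp, 11 Oas, 7 Ifitm, 6 Ifit and 3 Isg genes, 3 of the Stat and Mx group, and Rsad2, Igtp and Iigp1. Irf2bp1, Irf2bp2, Irf2bpl and Isg20l2 match by name but encode partner proteins or a nuclease outside these families.

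Cells came from 2 droplet libraries of single-cell RNA, 1 per labelled population, with no replicate. The LepR_tdT library was labelled as LepR-Cre;tdTomato+ marrow cells, and the EC library as marrow endothelial cells. Both came from C57Bl/6JCrl mice of genotype LepR-Cre;LSL-tdTomato, aged 3 to 4 months, so the Cre driver and the reporter are shared by both groups. In such mice the reporter stays on in any cell with a past or present history of Lepr promoter activity, so it marks a lineage and not current Lepr expression. Marrow was flushed from tibias and digested with enzymes, with VE-Cadherin antibody given by vein, but the protocol's sample numbers overlap, so the stains, the gate and whether these mice received tamoxifen are uncertain. The number of mice per library is not given in the sources used here.

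The LepR_tdT library held 4250 cells with a median of 4347 UMIs (unique molecular identifiers, each a counted molecule), and the EC library 4536 cells with a median of 3084.5 UMIs. Both libraries held 42 of the same cell barcodes. Cells were clustered without the members, and clusters were named from marker genes. Stromal-like cells (2931, from LepR_tdT) carried the LepR stromal list at 50169 CPM (UMIs per 1000000 UMIs of the class), against 418 CPM in the 3680 endothelial-like cells of EC. The endothelial list stood at 76.3 CPM in stromal-like and 8940.3 CPM in endothelial-like cells, which fits both labels. Smaller classes were 264 osteolineage-like cells, an unnamed cluster of 262 LepR_tdT cells led by genes that include Hsd11b1, Cxcl5 and Kit, and, within EC, 226 arterial-like and 3454 sinusoidal-like cells. Library and cell class cannot be told apart when stromal-like and endothelial-like cells are compared.

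Interferons are cytokines that act through paired receptors and JAK kinases. Type I interferons lead to a complex with STAT2 and IRF9 that binds the interferon-stimulated response element (ISRE), and interferon gamma leads to STAT dimers that bind the gamma-activated site (GAS). The genes switched on block viral entry, RNA and protein synthesis or attack the vacuoles of intracellular microbes. In bone marrow, interferons are known to drive resting haematopoietic stem cells into cycle, and many of these genes also have a basal level without infection.

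The promoters of members that differed between the classes show which of these elements they hold. RefSeq windows of 300 bases around the annotated start (GRCm38.p6) matched 43 of 55 symbols, in 54 windows. On either strand, the ISRE core GAAANNGAAA was in 22 of 54 member windows (40.7%), against 3.44% of all 32851 windows. The GAS core TTCNNNGAA was in 12 of 54 (22.2%), against 8.3% of all windows. These 5 promoters are shown because Isg15 and Ifit1 were higher in stromal-like cells, Rsad2 and Irf8 were higher in endothelial-like cells, and Ifitm1 differed with neither core. Capitals mark ISRE cores in Isg15, Ifit1 and Rsad2 and GAS cores in Irf8, and each sequence runs 5′ to 3′ on the strand of its gene.
Isg15, chr4:156200769-156201068, minus strand: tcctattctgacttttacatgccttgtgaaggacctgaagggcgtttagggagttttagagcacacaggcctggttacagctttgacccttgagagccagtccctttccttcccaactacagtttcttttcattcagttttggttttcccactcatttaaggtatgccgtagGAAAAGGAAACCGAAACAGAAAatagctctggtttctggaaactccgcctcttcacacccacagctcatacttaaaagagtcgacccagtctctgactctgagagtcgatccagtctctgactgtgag
Ifit1, chr19:34640639-34640938, plus strand: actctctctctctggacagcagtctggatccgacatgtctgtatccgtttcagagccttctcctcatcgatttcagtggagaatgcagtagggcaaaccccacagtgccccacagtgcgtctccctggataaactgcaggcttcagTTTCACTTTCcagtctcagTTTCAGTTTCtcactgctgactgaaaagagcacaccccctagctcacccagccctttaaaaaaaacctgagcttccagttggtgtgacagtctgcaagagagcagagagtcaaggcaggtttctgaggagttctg
Rsad2, chr12:26456403-26456702, minus strand: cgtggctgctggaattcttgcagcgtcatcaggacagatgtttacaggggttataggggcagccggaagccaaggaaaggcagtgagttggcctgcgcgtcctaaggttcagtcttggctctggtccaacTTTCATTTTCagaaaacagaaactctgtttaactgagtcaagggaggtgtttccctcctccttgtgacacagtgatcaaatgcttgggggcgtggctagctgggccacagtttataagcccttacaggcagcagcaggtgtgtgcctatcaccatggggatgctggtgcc
Irf8, chr8:120736108-120736407, plus strand: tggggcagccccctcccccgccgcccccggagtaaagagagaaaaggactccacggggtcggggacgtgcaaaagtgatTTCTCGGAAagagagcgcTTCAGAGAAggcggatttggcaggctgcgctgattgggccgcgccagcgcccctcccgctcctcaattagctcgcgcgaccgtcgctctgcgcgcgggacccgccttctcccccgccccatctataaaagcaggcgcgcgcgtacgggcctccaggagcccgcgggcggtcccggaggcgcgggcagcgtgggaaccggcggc
Ifitm1, chr7:140967826-140968125, plus strand: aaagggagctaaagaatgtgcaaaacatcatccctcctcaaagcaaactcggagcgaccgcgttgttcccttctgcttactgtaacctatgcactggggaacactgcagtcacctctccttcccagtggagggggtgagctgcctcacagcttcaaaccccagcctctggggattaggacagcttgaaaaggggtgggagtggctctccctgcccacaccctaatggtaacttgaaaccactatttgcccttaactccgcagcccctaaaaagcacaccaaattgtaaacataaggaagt
In Isg15 the 3 ISRE cores overlap one another and begin 78, 72 and 66 bases before the start. Ifit1 has 2 cores and Rsad2 has 1, all on the opposite strand. Irf8 has 2 GAS cores in the window shown and none in its other window. The 5 Gbp genes with a window all held an ISRE core, as did 5 of 6 Ifit genes, 2 of 7 Ifitm genes and 1 of 11 Irf genes. A match describes letters in the window and does not show binding.

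In stromal-like cells 11 of the 37 measured members were at least 2-fold higher than in endothelial-like cells, and 5 were at least 2-fold lower. A member counted as measured with at least 20 UMIs in both classes together, and as called when the 95% counting interval of its ratio also excluded 1. Of all genes measured in this comparison 21.2% were called higher and 17.6% lower, so the members' shares of 29.7% and 13.5% stand beside those values. The members' median log2 ratio was 0.59, against 0.10 over all genes measured. All intervals cover counting error only, since cells of 1 library are not replicates, and levels are compared within a gene because UMI counts are not corrected for gene length.

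**Figure D1:**
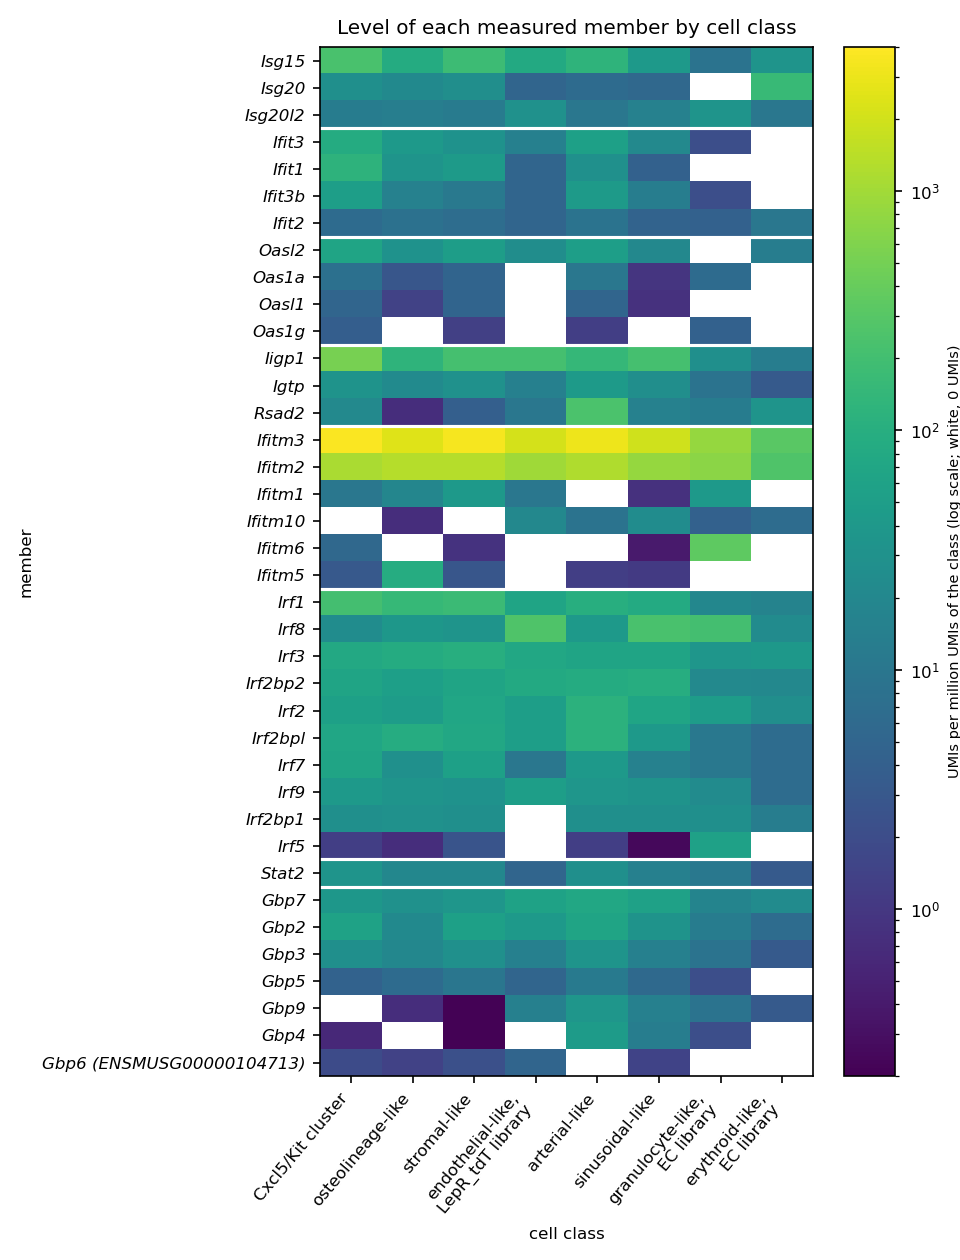
CPM (colour, log scale; white is 0 UMIs) of 38 members with at least 20 UMIs over both libraries, in rows by family and in columns by cell class. Ifitm3 had 3510.2 CPM in stromal-like and 1996.1 CPM in endothelial-like cells, whereas among the classes shown Rsad2 was highest in arterial-like cells at 238 CPM and Ifitm5 in osteolineage-like cells at 91.2 CPM.

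Among effectors of the type I response, Isg15, a ubiquitin-like modifier, had 2498 UMIs or 178.5 CPM (171.6 to 185.7) in stromal-like cells, against 618 UMIs or 48.1 CPM (44.4 to 52.1) in endothelial-like cells. Thinned to 1000 UMIs per cell, Isg15 was seen in 13.5% of stromal-like cells (12.3 to 14.8) and 3.91% of endothelial-like cells (3.30 to 4.60). In free RNA, the barcodes outside the cell table with 1 to 50 UMIs, Isg15 stood at 213 CPM in LepR_tdT and 138 CPM in EC, and the part of free RNA in these levels was not tested. For Ifit1, which binds foreign RNA at its cap end, stromal-like cells stood at 43.6 CPM and endothelial-like cells at 5.92 CPM (log2 ratio 2.88, interval 2.53 to 3.25). Isg20, an exonuclease of RNA, had 27.1 CPM in stromal-like and 5.76 CPM in endothelial-like cells (log2 ratio 2.23). The 3 measured Oas members, whose family includes the enzymes that make the activator of RNase L, were all higher in stromal-like cells. Oasl2 had 50.2 CPM in stromal-like and 22.3 CPM in endothelial-like cells, Oas1a had 4.79 and 1.48 CPM, and Oasl1 had 4.93 and 1.09 CPM. Not every effector followed. Ifit3, a partner of Ifit1, had 30.9 CPM in stromal-like and 23.6 CPM in endothelial-like cells (log2 ratio 0.39, not called), and Ifit3 and its near copy Ifit3b may share reads.

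Rsad2 (viperin), which makes a chain-ending nucleotide, went the other way, with 56 UMIs or 4.00 CPM in stromal-like and 379 UMIs or 29.5 CPM in endothelial-like cells. Its log2 ratio was -2.88 (-3.31 to -2.48). The immunity-related GTPases, which act at the vacuoles of microbes, did not pass the call. Iigp1 had 216.5 CPM in stromal-like and 208.5 CPM in endothelial-like cells, and Igtp had 29.4 and 27.6 CPM. Their log2 ratios were 0.05 (-0.02 to 0.13) for Iigp1 and 0.09 (-0.12 to 0.30) for Igtp.

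Among guanylate-binding proteins, which gather on microbial vacuoles, 2 of 7 measured members were lower in stromal-like cells and none was higher. Gbp4 (chr5:105115767-105139586, minus strand, GRCm38) had 3 UMIs in stromal-like and 198 UMIs in endothelial-like cells. Its log2 ratio was -6.17 (-8.46 to -4.60). Gbp9 (chr5:105077630-105139539, minus strand) had 3 UMIs in stromal-like and 208 UMIs in endothelial-like cells, and its log2 ratio was -6.24 (-8.53 to -4.67). Gbp4, Gbp8 and Gbp9 overlap on the same strand of chromosome 5, so their reads cannot be fully told apart. Gbp7 had 36.1 CPM in stromal-like and 58.9 CPM in endothelial-like cells, and Gbp2 had 56.2 and 34.3 CPM, and neither passed the fold of 2.

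The Ifitm proteins sit in membranes and several of them restrict viral entry, whereas Ifitm5 is known from bone-forming cells. Ifitm3 had 3510.2 CPM in stromal-like and 1996.1 CPM in endothelial-like cells, and was seen in 99.4% and 96.7% of cells. Ifitm2 had 1309.9 CPM in stromal-like and 867.8 CPM in endothelial-like cells, and both ratios were under 2-fold. Ifitm1 had 563 UMIs or 40.2 CPM in stromal-like cells, against 10 UMIs or 0.779 CPM in endothelial-like cells. Its log2 ratio was 5.69 (4.80 to 6.76). With every cell thinned to 1000 UMIs, Ifitm1 was seen in 3.91% of stromal-like cells (3.23 to 4.68) and in 0.0277% of endothelial-like cells. In free RNA Ifitm1 stood at 234 CPM in LepR_tdT and 211 CPM in EC, above the level in either class, and its part in this difference was not tested. A single shallow cell of EC held 47 of that library's 80 Ifitm1 UMIs. Ifitm10 (chr7:142325837-142373753, minus strand) had 0 UMIs in stromal-like cells and 300 UMIs in endothelial-like cells, so its log2 ratio was at most -6.77 with a floor of 3 UMIs for the class. Ifitm5 had 39 UMIs in stromal-like and 14 UMIs in endothelial-like cells, and its log2 ratio was 1.35 (0.44 to 2.35).

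Transcription factors of the response were split. Irf1, an activator that interferon gamma induces, had 173 CPM in stromal-like and 86.1 CPM in endothelial-like cells, which puts its log2 ratio of 1.01 at the threshold. Irf7, which amplifies type I interferon, had 55.1 CPM in stromal-like and 17.3 CPM in endothelial-like cells, and Irf5, known from myeloid cells, had 37 UMIs in stromal-like and 4 UMIs in endothelial-like cells. Irf8, needed for monocyte and dendritic cell development, had 33.7 CPM in stromal-like and 221 CPM in endothelial-like cells. Its log2 ratio was -2.71 (-2.86 to -2.57), and free RNA held it at 67.7 CPM in LepR_tdT and 173 CPM in EC. Thinned, Irf8 was seen in 3.50% of stromal-like and 20.3% of endothelial-like cells. Irf3, Irf9 and Irf2 were not called, with 100.4, 31.2 and 70.2 CPM in stromal-like and 65.6, 32.5 and 69.6 CPM in endothelial-like cells. The transducer Stat2 had 19.2 CPM in stromal-like and 15.9 CPM in endothelial-like cells and did not pass the call. The 21 members that were not called had log2 ratios between -0.71 (Gbp7) and 0.88 (Gbp3).

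**Figure D2:**
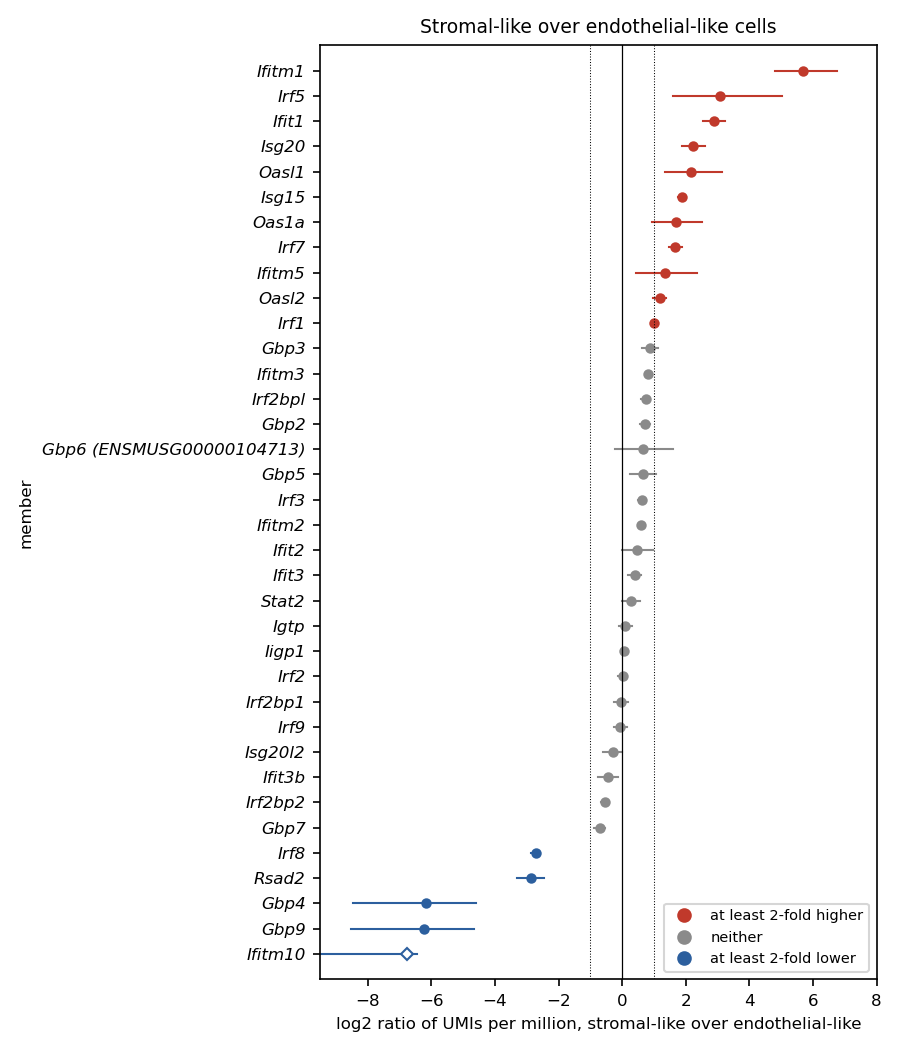
Log2 ratio of CPM, stromal-like over endothelial-like cells, for 36 measured members, with 95% counting intervals (lines) and the fold of 2 dotted. The open diamond is Ifitm10 at its bound of -6.77, whose interval runs off the left edge, and the highest point is Ifitm1 at 5.69.

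The call of Irf1 ended when all ratios were rescaled by edgeR TMM factors (0.93) or by median-ratio factors (0.96), and that of Irf5 ended when all cells of each library were compared (0.52). After thinning to 1000 UMIs, Ifitm5, Irf5 and Oas1a no longer counted as measured, so their calls could not be judged there. Over all cells of the libraries, 11 of 39 measured members were higher in LepR_tdT and 6 were lower, beside 20.9% and 17.6% of all genes. The calls differed from those of the classes in 3 members, with Oas1g higher and Ifitm6 lower in LepR_tdT and Irf5 no longer called. Leukocyte genes, a list of 9 with all detected in both classes, summed to 21.2 CPM in stromal-like and 68.0 CPM in endothelial-like cells, and 8 granulocyte genes to 61.7 CPM in stromal-like and 175 CPM in endothelial-like cells, and their part in these ratios was not tested. Most of the leukocyte sum in endothelial-like cells was Lcp1, with 4 UMIs in stromal-like cells and 639 UMIs in endothelial-like cells. Without it, a step added after its values were seen, the sum was 20.9 CPM in stromal-like and 18.3 CPM in endothelial-like cells. That sum still held Coro1a, with 150 UMIs in stromal-like and 21 UMIs in endothelial-like cells. Of the other genes left, only Spi1 was higher in stromal-like cells, and Lyz2 stood at 5.07 CPM in stromal-like and 8.41 CPM in endothelial-like cells. Without the cells that held 2 leukocyte markers, 11 members were still higher and 5 lower. Of 4 plasmacytoid dendritic cell genes, only Ccr9 was detected in stromal-like cells, and Siglech, Klk1 and Cox6a2 were at 0.

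The 60 endothelial-like cells caught in the LepR_tdT library give the same class in the other preparation. Of 31 measured members none was higher and none lower than in the endothelial-like cells of EC, beside 1.7% and 1.17% of all genes. Irf8 had 51 UMIs or 259 CPM in these LepR_tdT cells and 221 CPM in EC. Isg15 had 16 UMIs or 81.2 CPM in the LepR_tdT endothelial-like cells and 48.1 CPM in those of EC. The stromal list stood at 2567 CPM in these LepR_tdT cells and 418 CPM in the endothelial-like cells of EC, and its part was not tested. With so few cells, differences of 2-fold in members of low level were not detectable at this depth.

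Genes around the response were read from a wider list. No interferon gene reached 20 UMIs in any of these comparisons, with 0 of 11 ligand genes of the matrix measured. Of 13 measured receptor and signalling genes 5 were higher in stromal-like cells and 2 were lower, beside the 21.2% and 17.6% of all genes, with a median log2 ratio of 0.61. The receptor chains Ifnar2, Ifngr2 and Il10rb had 376, 168 and 194 CPM in stromal-like cells, against 156, 47.8 and 52.0 CPM in endothelial-like cells, and the feedback inhibitors Socs1 and Socs3 were also higher. The kinases Jak1 and Jak2 were lower, with 145 and 20.2 CPM in stromal-like and 986 and 55.2 CPM in endothelial-like cells. Of 12 measured sensors and adaptors 2 were higher (Zbp1 and Ikbke) and 3 lower (Mavs, Tlr3 and Tmem173), with a median log2 ratio of -0.09. Of 40 other interferon-stimulated genes 6 were higher and 10 lower, and their median log2 ratio was -0.39, against 0.59 for the members and 0.10 for all genes. Among them were Lgals3bp at 254 CPM in stromal-like and 12.2 CPM in endothelial-like cells, and Ly6a at 7.22 CPM in stromal-like and 508 CPM in endothelial-like cells.

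Within the EC library, arterial-like cells had higher levels of many members than sinusoidal-like cells. Of 31 measured members 11 were at least 2-fold higher and 2 lower, beside 7.25% and 3.83% of all genes. The members' median log2 ratio was 0.82, against 0.20 over all genes measured. Both classes came from 1 preparation, with medians of 3158.5 UMIs per arterial-like and 3409 UMIs per sinusoidal-like cell. The arterial marker list summed to 3300 CPM in arterial-like and 200 CPM in sinusoidal-like cells, of which Ly6c1 alone made 2460 and 127 CPM. The sinusoidal list summed to 2643 CPM in arterial-like and 7271 CPM in sinusoidal-like cells, so arterial-like cells also carried sinusoidal marker RNA. The part of these lists in the ratios was not tested.

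Rsad2 differed most in this comparison. The 226 arterial-like cells held 189 of its UMIs and the 3454 sinusoidal-like cells 190, which is 238 CPM (205 to 274) and 15.8 CPM (13.6 to 18.2) and a log2 ratio of 3.92 (3.62 to 4.21). Thinned, Rsad2 was seen in 38 of 204 arterial-like cells (18.6%, 13.5 to 24.7) and in 49 of 3400 sinusoidal-like cells (1.44%, 1.07 to 1.90). Unthinned, the shares were 40.7% of arterial-like cells and 4.34% of sinusoidal-like cells. The most Rsad2 UMIs in a single cell were 9 among arterial-like cells and 12 among sinusoidal-like cells, and without the 2 cells of each class with the most core UMIs the log2 ratio was 3.98. Free RNA of EC held Rsad2 at 53.1 CPM.

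Other type I effectors were also higher in arterial-like cells. Ifit1 stood at 29.0 CPM in arterial-like cells and 4.40 CPM in sinusoidal-like cells, Ifit3 had 55.4 and 21.5 CPM, and for Ifit3b the arterial-like level was 44.1 CPM and the sinusoidal-like level 13.1 CPM. Isg15 had 98 UMIs or 123 CPM in arterial-like cells and 520 UMIs or 43.2 CPM in sinusoidal-like cells, and Oasl2 had 51.6 and 20.3 CPM. Among factors Irf7 stood at 40.3 CPM in arterial-like cells and 15.8 CPM in sinusoidal-like cells. Irf2bpl, which matches by name only, had 116 CPM in arterial-like and 41.7 CPM in sinusoidal-like cells. Gbp4, Gbp9 and Gbp3 had 46.6, 36.5 and 34.0 CPM in arterial-like cells, against 13.4, 14.9 and 14.8 CPM in sinusoidal-like cells. Irf8 was lower, with 33 UMIs or 41.6 CPM in arterial-like cells and 233 CPM in sinusoidal-like cells, a log2 ratio of -2.49 (-3.03 to -1.99). Ifitm10 was lower too, with 7 UMIs or 8.82 CPM in arterial-like cells and 24.3 CPM in sinusoidal-like cells.

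**Figure D3:**
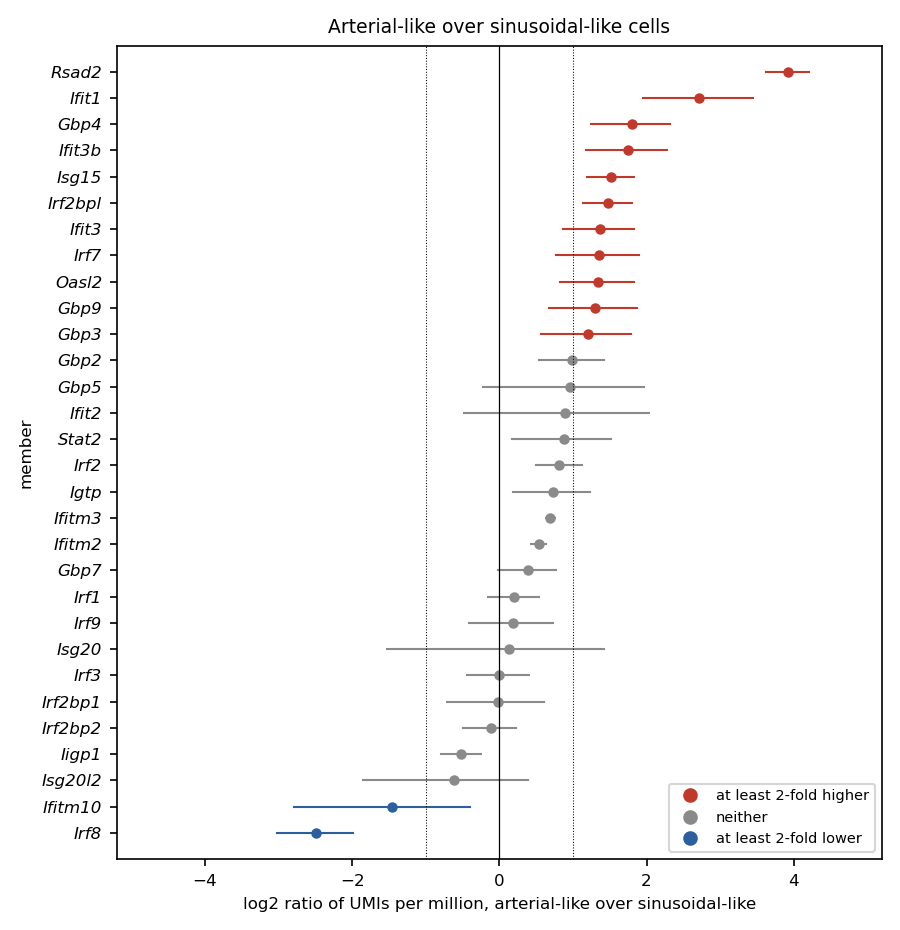
Log2 ratio of CPM, arterial-like over sinusoidal-like cells, for 30 measured members, with 95% counting intervals (lines) and the fold of 2 dotted. Rsad2 stands highest at 3.92 and Irf8 lowest at -2.49.

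Irf1 stood at 98.2 CPM in arterial-like cells and 85.3 CPM in sinusoidal-like cells, and Iigp1 at 149 CPM in arterial-like cells and 212.5 CPM in sinusoidal-like cells, and neither passed the call. Of members with a promoter window, 6 of the 9 higher in arterial-like cells held an ISRE core and none held a GAS core, against 8 and 9 of the 16 that were not called. In the comparison of stromal-like with endothelial-like cells the ISRE core was in 3 of 11 higher members and in 11 of 18 that were not called. Rescaling moved the ratios of all genes by -0.21 (TMM) and -0.20 (median ratio), after which 10 and 11 members were higher. The call of Gbp3 ended under TMM, without the top 2 cells and without cells above 2 times the median UMIs, that of Ifit1 ended on thinning, and that of Ifitm10 ended in the thinned and depth-limited sets. Stromal marker genes summed to 1069 CPM in arterial-like cells and 375 CPM in sinusoidal-like cells, of which Cxcl12 alone made 736 CPM in arterial-like cells and 27.8 CPM in sinusoidal-like cells. The other 12 stromal genes summed to 334 CPM in arterial-like cells and 348 CPM in sinusoidal-like cells. Leukocyte genes summed to 70.5 CPM in arterial-like cells and 67.9 CPM in sinusoidal-like cells, and without Lcp1 to 8.82 CPM in arterial-like cells and 18.9 CPM in sinusoidal-like cells, with Ptprc, Spi1, Laptm5 and Tyrobp at 0 in arterial-like cells. Their part in the ratios was not tested.

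In the wider lists, Lgals3bp and Ly6a were higher in arterial-like cells, at 76.8 and 2039 CPM, against 7.97 and 407 CPM in sinusoidal-like cells, as was Cmpk2 at 37.8 CPM in arterial-like cells and 15.2 CPM in sinusoidal-like cells. Of 38 measured other interferon-stimulated genes these 3 were higher and 0 were lower, beside 7.25% and 3.83% of all genes. The median log2 ratio of these 38 genes was 0.16, against 0.20 over all genes measured. The sensors Zbp1 and Dhx58 and the receptor chain Il10rb were higher in arterial-like cells, and Mavs, Jak1, Jak2 and Socs3 were lower. These were all the calls among 11 measured sensors and 13 receptor and signalling genes, beside the same shares of all genes.

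Osteolineage-like cells differed from stromal-like cells of the same library in few members. Of 34 measured members 1 was higher and 3 lower, beside 4.88% and 5.31% of all genes. Ifitm5 (chr7:140948958-140950291, minus strand) had 127 UMIs or 91.2 CPM (76.0 to 109) in osteolineage-like cells and 39 UMIs or 2.79 CPM in stromal-like cells, a log2 ratio of 5.03 (4.50 to 5.59). It was seen in 12.1% of osteolineage-like and 1.30% of stromal-like cells, with up to 20 UMIs in a single osteolineage-like cell. Gbp2 stood at 22.3 CPM in osteolineage-like cells and 56.2 CPM in stromal-like cells, Ifitm1 had 18.7 and 40.2 CPM, and Isg15 had 88.3 and 178.5 CPM. The call of Isg15 ended under both rescalings, without deep cells and on thinning, which also ended that of Gbp2. Immediate early genes of dissociation summed to 9427 CPM in osteolineage-like cells and 6969 CPM in stromal-like cells. Erythroid genes summed to 2899.7 CPM in osteolineage-like cells (7 of 8 detected, Car1 at 0) and 192 CPM in stromal-like cells, and chondrocyte genes to 374 CPM in osteolineage-like cells (5 of 6 detected, Acan at 0) and 38.6 CPM in stromal-like cells. The part of these lists was not tested. Of 39 measured other interferon-stimulated genes 1 was higher (Ly6a) and 7 were lower, among them Ifi44, Rtp4 and Uba7.

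The unnamed Cxcl5 and Kit cluster carried the stromal list at 50389.9 CPM and the endothelial list at 74.5 CPM, against 50169 CPM and 76.3 CPM in stromal-like cells, and was compared with them after the clusters had been seen. Of 36 measured members 6 were higher and 2 lower, beside 3.16% and 3.42% of all genes. Iigp1 had 826 UMIs or 526 CPM (491 to 563) in the cluster and 216.5 CPM in stromal-like cells, and was seen in 28.1% and 14.7% of thinned cells. Ifit1, Ifit3 and Ifit3b had 122, 88.5 and 52.2 CPM in the cluster, against 43.6, 30.9 and 11.0 CPM in stromal-like cells, and Rsad2 had 33 UMIs in the cluster and 56 UMIs in the far larger stromal-like class, a log2 ratio of 2.39. Ifitm6 had 9 UMIs in the cluster and 12 UMIs in stromal-like cells. Ifitm1 and Gbp5 were lower, at 10.2 and 4.46 CPM in the cluster and 40.2 and 9.65 CPM in stromal-like cells.

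For 4 of these 6 members the call rested on a pair of cells, which held 166 and 161 core UMIs, 26.3% of the cluster's 1245, against 34 in the next cell, where core members include the Ifit and Oas genes, Isg15, Rsad2, Mx1, Irf7 and Stat2. Without the 2 cells of each class with the most core UMIs, the log2 ratio was 0.62 for Ifit1, 0.74 for Ifit3, 0.93 for Ifit3b and 0.33 for Rsad2, and none of these was called. These 4 are core members, so their own UMIs helped to choose the cells left out. Iigp1 and Ifitm6 are not core members, so their results without those cells are not a like comparison. Iigp1 kept its call at 461 CPM in the cluster and 215 CPM in stromal-like cells, a log2 ratio of 1.10 (0.98 to 1.22), and so did Ifitm6 with its few UMIs, although thinning ended the calls of Ifitm6, Ifit3 and Gbp5. Cxcl10, an interferon-induced chemokine, had 138 CPM in the cluster and 31.6 CPM in stromal-like cells, but 177 of its 217 UMIs in the cluster lay in the same pair of cells. Without the 2 cells of each class it stood at 25.7 CPM in the cluster and 30.1 CPM in stromal-like cells. Its relative Cxcl9 had 86.0 CPM in the cluster and 78.5 CPM in stromal-like cells. Immediate early genes summed to 12541 CPM in the cluster and 6969 CPM in stromal-like cells. Osteolineage genes summed to 1848 CPM in the cluster and 7693 CPM in stromal-like cells, and without Ibsp to 211 CPM in the cluster and 374 CPM in stromal-like cells. Chondrocyte genes summed to 268 CPM in the cluster, nearly all Comp, and 38.6 CPM in stromal-like cells. Blood progenitor genes summed to 305 CPM in the cluster and 24.3 CPM in stromal-like cells, and without Kit, which leads the cluster, to 19.1 CPM in the cluster and 12.8 CPM in stromal-like cells. The part of these lists was not tested.

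**Figure D4:**
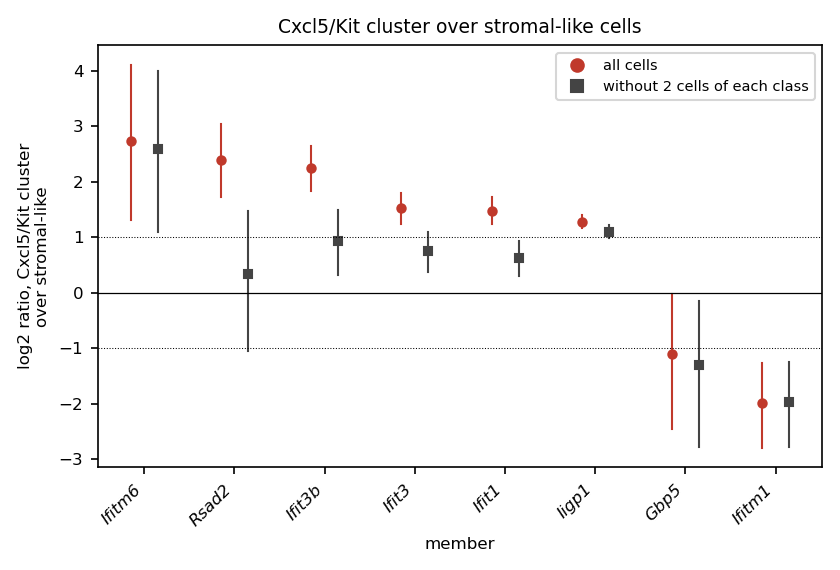
Log2 ratio of CPM, Cxcl5 and Kit cluster over stromal-like cells, for the 8 called members, with all cells (circles) and without the 2 cells of each class with the most core UMIs (squares). Lines are 95% counting intervals. Rsad2, a core member, stands at 2.39 with all cells and 0.33 without them, whereas Iigp1, which is not a core member, stands at 1.28 and 1.10.

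Sinusoidal-like cells fell into a cluster led by immediate early and stress genes (1429 cells) and another of 2025 cells, compared after the clusters had been seen. Of 31 measured members 1 was higher and none lower, beside 1.82% and 0.693% of all genes. Irf1 had 118.5 CPM in the stress-led cluster and 56.9 CPM in the other, a log2 ratio of 1.06 (0.87 to 1.25). Thinning ended this call. The immediate early list summed to 11869 CPM in the stress-led cluster and 1863 CPM in the other, and its part was not tested. A finer clustering gave 58 sinusoidal-like cells led by MHC class II genes, which were not left out of the clustering. Compared after the clusters had been seen, these cells had 3 of 31 measured members higher and none lower than other sinusoidal-like cells, beside 1.31% and 0.733% of all genes. Gbp2 had 22 UMIs or 111 CPM in them and 30.4 CPM in the others, and Ifit3b had 7 UMIs or 35.2 CPM in them and 12.0 CPM in the others. Of 38 measured other interferon-stimulated genes 1 was higher and none lower. Cxcl9, also among the genes that lead these cells, had 725 CPM in them and 107 CPM in the others. Without the 2 cells of each class with the most core UMIs Ifit3b was not called and Gbp2 was. Gbp2 is not a core member. Ifit3b and the called member not reported by name are core members, whose own UMIs helped to choose those cells. Leukocyte genes summed to 116 CPM in the class II-led cells and 67.0 CPM in the others, and without Lcp1 to 35.2 CPM, from 7 UMIs, in the class II-led cells and 19.1 CPM in the others, and their part was not tested.

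Whether members were seen in the same cells was read with each cell thinned to 1000 UMIs, since deeper cells show more genes. At least 3 core members were seen in 1.92% of stromal-like cells (56 of 2917, 1.45 to 2.49) and in 0.61% of endothelial-like cells (22 of 3604, 0.38 to 0.92). The share was 5.0% in the Cxcl5 and Kit cluster (13 of 260, 2.69 to 8.4), 1.92% in osteolineage-like cells (5 of 260), 2.45% in arterial-like cells (5 of 204, 0.80 to 5.63) and 0.50% in sinusoidal-like cells (17 of 3400, 0.29 to 0.80). Unthinned, the shares were 19.4% in stromal-like, 6.25% in endothelial-like, 35.5% in Cxcl5 and Kit, 13.3% in osteolineage-like, 22.6% in arterial-like cells and 5.18% in sinusoidal-like cells. Core members summed to 478, 267, 793, 320, 723 and 236 CPM in these classes, in the same order. Thinning evens out depth and not these levels, so the order of the shares does not by itself show members in the same cells.

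In stromal-like cells other members were seen more often beside an Ifit gene. Isg15 was seen in 28.8% of the 222 cells with an Ifit UMI (23.0 to 35.3) and in 12.2% of the 2695 cells without one (11.0 to 13.5). With an Ifit UMI, Oasl2, Irf7, Rsad2 and Iigp1 were seen in 12.2%, 10.4%, 3.15% and 27.0% of cells, and without one in 3.97%, 4.60%, 0.186% and 13.7%. Irf3, which is present before induction, was seen in 9.46% of cells with an Ifit UMI and 9.05% of cells without one, and Irf1 in 19.4% of the first and 15.9% of the second, with intervals that overlap. In sinusoidal-like cells Isg15 was seen in 12.0% of the 117 cells with an Ifit UMI and 3.41% of the 3283 cells without one, Rsad2 in 5.98% and 1.28%, and Iigp1 in 32.5% and 17.1%. The intervals overlapped for Irf7, seen in 1.71% of cells with an Ifit UMI (0.208 to 6.04) and 1.37% of cells without one (1.00 to 1.83), and for Oasl2, seen in 4.27% (1.40 to 9.69) and 1.92% (1.48 to 2.45). In arterial-like cells Rsad2 was seen in 7 of 24 cells with an Ifit UMI (29.2%, 12.6 to 51.1) and in 31 of 180 without one (17.2%, 12.0 to 23.5), intervals that overlap.

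**Figure D5:**
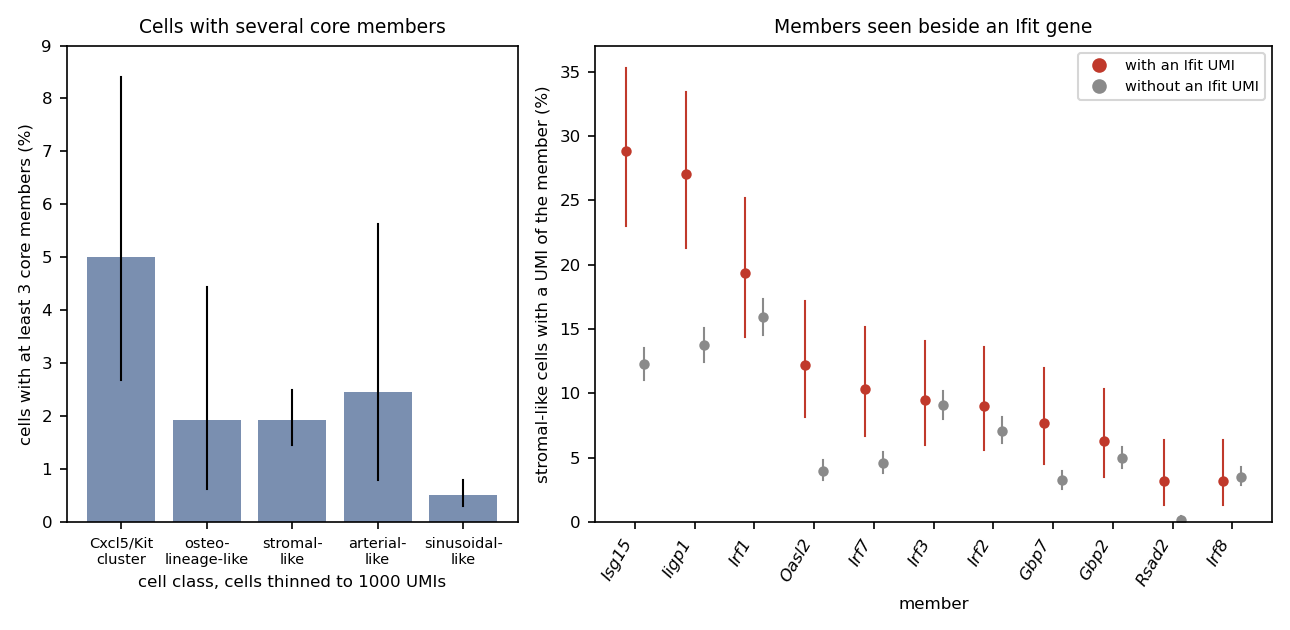
Left, the percentage of cells of each class with at least 3 core members, cells thinned to 1000 UMIs, with exact 95% intervals. Right, the percentage of stromal-like cells with a UMI of each member among cells with (red) and without (grey) an Ifit UMI, where Isg15 stands at 28.8% and 12.2%.

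Of the 56 members, 19 did not reach 20 UMIs in stromal-like and endothelial-like cells together. Gbp2b, Gbp10, Oas1d, Oas1e, Oas1f, Oas1h and the second Gbp6 entry had 0 UMIs in the cells of both libraries. Mx1, an antiviral GTPase, had 9 UMIs in LepR_tdT cells and 1 in EC cells, and Gbp8 had 0 in LepR_tdT and 8 in EC. Oas1g, a near copy of Oas1a, had 24 UMIs in LepR_tdT and 3 in EC, and Oas1c had 1 in LepR_tdT and 10 in EC. Irf4, Ifitm7, Oas2, Oas3, Ifit1bl1 and Ifit1bl2 had at most 4 UMIs over both libraries.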

How the data were processed

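The deposited matrix holds raw UMI counts per gene and barcode for 2 libraries, per the file headers, and the authors' cell table assigns cells to libraries. The submitters' processing notes name, without roles, mm10, Seurat 2.3.4 and Cell Ranger 2.1.1. Recomputed UMIs matched the table in all 4250 LepR_tdT and 4536 EC cells. How the authors chose cells, and whether they removed doublets, is not given in the sources used here. Columns of other samples numbered 0.

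Cells were clustered with scanpy 1.11.5 (2000 variable genes less the members, wider interferon lists, mitochondrial genes, tdTomato and rarely seen genes, leaving 1566; 30 components, 15 neighbours, Leiden resolution 0.5, best modularity of 20 seeds). Clusters were named from marker lists. UMIs were summed per class and given as CPM with exact Poisson intervals, ratios with conditional exact binomial intervals and shares with exact Clopper-Pearson intervals, at 95%. With 1 library per group no test was run. The ratio and call were tested on simulated data. The members, lists, markers and settings were chosen with earlier results of these data known. Members described in full are the 2 of each family with the most UMIs and those called in a comparison. Positions come from GENCODE M21 (GRCm38), in which all 56 members were found; promoters come from RefSeq. Doublets were not removed: scrublet called 1 LepR_tdT cell and 0 EC cells and was not used. Alternatives rescaled the classes with edgeR 4.0.16 TMM or median-ratio factors, changed the UMI filter or the clustering, subtracted free RNA, thinned cells or left cells out. Some members are not reported here by name, although counts include them, and they are not drawn in the figures.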

Additional observations from a re-analysis of the deposited data

How the results depend on the processing

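No paired analysis was possible because each group has 1 library. In the comparison of stromal-like with endothelial-like cells, none of the 25 members followed by name reversed. Outside the members, Cxcl10 was higher in the Cxcl5 and Kit cluster than in stromal-like cells with all cells. Without the 2 cells of each class with the most core UMIs Cxcl10 was no longer higher. It stood at 25.7 CPM from 40 UMIs in the cluster and 30.1 CPM from 421 UMIs in stromal-like cells. That difference was under 2-fold, and no interval was computed for it. With free RNA subtracted at the share of the median marker (2.32% in LepR_tdT and 44.6% in EC), chosen after seeing the data, 17 members were higher in stromal-like cells in place of 11, and the median log2 ratio was 1.00 in place of 0.59. The lower-quartile shares of 1.73% in LepR_tdT and 5.27% in EC gave 11. Single markers gave shares of 0 to 94.7% in EC, so these shares are uncertain, and a marker that the class itself expresses makes its share too high. That median ratio was 0.48 with no filter beyond 3 UMIs, 0.48 with at least 50 UMIs and 0.48 in thinned cells. Members lower in osteolineage-like than stromal-like cells were 5 in place of 3, both with interferon genes kept in the clustering and without the 2 cells of each class with the most core UMIs. Members lower in arterial-like than sinusoidal-like cells were 1 in place of 2 after thinning and 1 without deep cells. In endothelial-like cells of LepR_tdT against EC, 1 member (Ifitm1) was higher with no filter, and the median free RNA share gave 1 higher (Ifit3) and 1 lower (Irf2bp1), in place of 0. Members higher in the Cxcl5 and Kit cluster were 2 in place of 6 without the top 2 cells, and members lower there were 1 in place of 2 after thinning. The median free RNA share gave 3 higher and 2 lower in the stress-led cluster, in place of 1 and 0, and 7 higher in class II-led cells in place of 3, which had 1 without the top 2 cells. Cells with at least 3 core members were 19.4% of stromal-like, 6.25% of endothelial-like, 35.5% of Cxcl5 and Kit, 22.6% of arterial-like cells and 5.18% of sinusoidal-like cells unthinned, and with at least 2 core members in thinned cells 7.47% of stromal-like, 2.89% of endothelial-like, 13.5% of Cxcl5 and Kit, 13.2% of arterial-like cells and 2.26% of sinusoidal-like cells. The cause of these changes was not tested. At resolution 1.0 and with interferon genes kept in the clustering no cluster was named arterial-like, so that comparison has no value there. Each of these clusterings held a cluster led by Fbln2, as the arterial-like cluster was, with 328 and 250 EC cells. The naming rule left both unnamed because another marker set led. Leaving out cells whose barcode both libraries hold, an alternative added later, changed none of these counts. Scrublet marked too few cells to be used, and cells above 2 times the median UMIs were left out in its place. Depth is low in the 58 class II-led cells, the 60 LepR_tdT endothelial-like cells and the 226 arterial-like cells, where 3 UMIs are 15.1, 15.2 and 3.78 CPM.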

Other observations

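Blood cells caught in both libraries carried some members at higher levels than the niche classes. Ifitm6 stood at 280 CPM in 24 granulocyte-like cells of LepR_tdT and at 342 CPM in 43 of EC, and those cells held 79 of its 101 UMIs in LepR_tdT and 160 of its 165 UMIs in EC. Irf5 stood at 53.2 CPM in granulocyte-like cells of LepR_tdT and at 57.7 CPM in those of EC. Granulocyte genes summed to 85750.5 CPM in this class in LepR_tdT and 117437 CPM in EC. The class also carried B cell genes, at 373 CPM in LepR_tdT and 759 CPM in EC, so other leukocytes may be among its cells. Isg20 stood at 282 CPM in 19 erythroid-like cells of LepR_tdT and at 157 CPM in 83 of EC. Ifitm1 stood at 313 CPM in 17 pericyte-like cells, from 22 UMIs.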
